A study of Homo sapiens with 2 samples.

Results

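CHD4 peaks were examined at 10 genes that act as negative feedback regulators or as transcriptional outputs of the MAPK pathway. These are *DUSP4*, *DUSP6*, *SPRY2*, *SPRY4*, *SPRED1*, *SPRED2*, *ETV4*, *ETV5*, *EGR1* and *PHLDA1*. A peak was assigned to a gene when it overlapped the gene record of GENCODE release 44 mapped to GRCh37, or the 10000 bp before its start, by at least 1 bp. By this rule 38 peaks of the 60126 in the list fell on the 10 genes. The cells were 501Mel, an established human melanoma cell line grown without treatment in RPMI medium with foetal calf serum. Chromatin fixed with 0.4% paraformaldehyde gave 1 CHD4 ChIP library and 1 library of input DNA from the same line, and there were no replicates. There is thus no error between replicates to set beside a value, and conditions were not tested against each other. For every peak the list states how far the ChIP exceeded the background (fold enrichment) and how unlikely that excess was (−log10 q, the caller's false discovery measure). It holds no read counts, so the depth behind each peak is unknown. Nor does it state how a value was taken over the length of a peak, so ranks of long and short peaks are a description.

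CHD4 is the ATPase of the NuRD complex, which couples nucleosome remodelling to histone deacetylation and is found at promoters and enhancers. In the MAPK pathway, receptor signals pass through RAS, RAF and MEK to ERK, and many melanomas carry activating mutations in *BRAF* or *NRAS*. Active ERK induces its own inhibitors, among them DUSP phosphatases, Sprouty and SPRED proteins, together with transcription factors such as EGR1 and the ETS factors ETV4 and ETV5. For this reason such genes are widely used as a readout of pathway output in melanoma. The peak list measures occupancy and not expression of these genes.

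All 10 genes had at least 1 peak, whereas 63.4% of the 20098 protein-coding genes on chromosomes 1 to 22 and X had one under the same rule (12734 genes; the 95% Wilson bounds of 62.7% and 64.0% reflect counting error alone). With peaks of q of at most 0.01, 9 of the 10 genes had a peak against 48.4% of protein-coding genes, and *SPRED2* was the gene without one. No gene of the 10 had a peak with a −log10 q of at least 5, which 5.48% of protein-coding genes had. By q, 19 of the 38 peaks had one of at most 0.01, against 48.5% of all peaks, and none reached a −log10 q of 5, against 2.23%. The 38 peaks had a median fold enrichment of 3.14, from 2.42 to 4.19, and the median over the whole list was 3.09. Of the 38, 21 lay above the median of the list, and 1 had a fold enrichment of at least 4, as 5.51% of all peaks did. The peaks were longer, with a median of 976 bp against 613 bp in the whole list and 610 bp among the 39738 peaks in the windows of protein-coding genes. Of the 38, 9 were at least 2000 bp long, against 10.3% of all peaks, and these 9 lay on *DUSP6*, *ETV4* and *ETV5*. These pooled values lean on few genes. *ETV4* and *ETV5* together held 19 of the 38 peaks, and *ETV5* alone held 50.2% of the covered bases. Over the peaks of the other genes the median fold enrichment was 3.10.

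**Figure D1:**
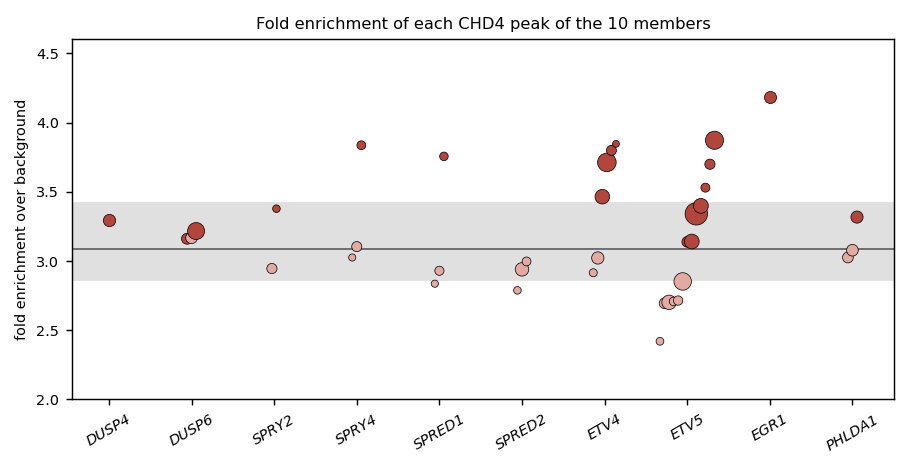
Fold enrichment of each of the 38 CHD4 peaks over the background, by gene. Each point is 1 peak, its area grows with the length of the peak, and darker points have a q of at most 0.01; the line and the grey band are the median and the middle 50% of the fold enrichment of all 60126 peaks. The *EGR1* peak is the highest at 4.19 and an *ETV5* peak the lowest at 2.42.

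*EGR1* encodes a zinc finger transcription factor and is a classical immediate early gene, induced within minutes of growth factor stimulation. It lies on chromosome 5 from 137801168 to 137804992 on the plus strand (hg19, as all coordinates here). Its only peak, from 137799600 to 137800986, was the strongest of the 38, at 4.19-fold over the background (−log10 q 4.30). Of all peaks in the list, 96.6% had a lower fold enrichment. The peak is 1387 bp long, lies wholly before the gene from position -1568 to position -182 relative to the start, and covers the start of the lncRNA ENSG00000289267. Its last 300 bp are shown because they hold a dense group of matches to the serum response factor motif, the CArG box (CC, then 6 bases A or T, then GG), and to the ETS core CCGGAA. The sequence of chr5:137800687-137800986 is given on the plus strand, with both kinds of match in capitals.

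EGR1 upstream peak: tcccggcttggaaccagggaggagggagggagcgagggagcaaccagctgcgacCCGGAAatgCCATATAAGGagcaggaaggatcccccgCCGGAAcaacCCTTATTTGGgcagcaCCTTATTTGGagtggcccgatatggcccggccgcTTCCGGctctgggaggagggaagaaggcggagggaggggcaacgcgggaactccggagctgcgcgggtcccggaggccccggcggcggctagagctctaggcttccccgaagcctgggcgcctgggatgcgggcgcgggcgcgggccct

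In the gene's direction, the ETS cores of this stretch begin at positions -427, -390 and -330 relative to the start and the CArG boxes at -418, -380 and -364. Serum response factor bound to CArG boxes together with ETS proteins of the ternary complex is the textbook route by which ERK induces *EGR1*. A pair of further ETS cores lies earlier in the peak, at -931 and -792. Among regions of 1387 bp centred on each of 60099 peaks, 7.96% held at least 1 CArG box, 0.0116% (7 peaks) at least 3, and 0.0632% (38 peaks) at least 5 ETS cores. Only 1 peak, that of *EGR1*, held both numbers; these limits were taken from the *EGR1* peak after its sequence had been seen, so the shares are a description. A match says that the letters are present in the reference sequence and not that a factor was bound in these cells.

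*ETV5* had the most peaks of the 10 genes and the largest share of its window under peaks, although *DUSP6* and *PHLDA1* had more peaks per length. ETV5 belongs to the PEA3 group of ETS transcription factors, whose genes respond to ERK and FGF signalling. The gene lies on chromosome 3 from 185764103 to 185828107 on the minus strand and had 13 peaks. Peaks covered 24267 bp, or 32.8% of its window, and only 94 protein-coding genes, *ETV5* included, had at least as large a share of their window covered. Among 2872 other genes whose window length was within 25% of its own, 0.59% had at least as many peaks and the median was 2. The 13 peaks had fold enrichments from 2.42 to 3.87, and 7 of them had a q of at most 0.01.

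Within the canonical transcript of *ETV5*, which has 13 exons, most of the occupancy lay in a pair of long introns. Peaks covered 42.8% of the 24129 bp of intron 5 with 6 peaks and 68.3% of the 13744 bp of intron 7 with 3 peaks, and these introns held 81.3% of the covered bases of the window. Introns 1 to 4 held none, and the next peak after intron 7 was a short one of 341 bp in intron 11. The longest peak, from 185785887 to 185791648 in intron 7, is 5762 bp long and has a fold enrichment of 3.34. The strongest peak, from 185797316 to 185800934, covers exons 6 and 7 and parts of the surrounding introns, at 3.87-fold (−log10 q 4.67), and the annotated start of another *ETV5* transcript lies in it. At the start of the gene, 3 peaks lay before the canonical transcript. They had fold enrichments of 3.53 for the nearest, at positions -1006 to -415 from the canonical start, then 3.14 and 2.71. Part of the last exon and the end of the gene lay under a further peak of 3.70.

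The 3 sequences of *ETV5* shown here are those with a CArG box before the gene and with an AP-1 motif (TGACTCA or TGAGTCA) or an ETS core in the strongest peak, all on the minus strand in the gene's direction. They lie at chr3:185829551-185829611, chr3:185800100-185800160 and chr3:185798107-185798167, and the motif stands in capitals. The matches in the strongest peak lie more than 150 bp from its centre. The share of regions as long as that peak with such a match was not computed, so they are a description only.
ETV5 upstream CArG box: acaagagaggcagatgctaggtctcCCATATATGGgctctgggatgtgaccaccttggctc
ETV5 intronic AP-1 motif: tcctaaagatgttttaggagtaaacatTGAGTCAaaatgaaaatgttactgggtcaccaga
ETV5 intronic ETS core: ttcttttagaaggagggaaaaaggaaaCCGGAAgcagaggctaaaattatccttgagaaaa

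*ETV4*, the other PEA3 factor among the genes, lies on chromosome 17 from 41605212 to 41656988 on the minus strand and had 6 peaks covering 13.8% of its window. Of 3195 other genes of similar window length, 7.79% had at least as many peaks and 3.0% at least as large a covered share. The gene record begins 33280 bp before its canonical transcript, and 2 of the 6 peaks lie in the record wholly before the canonical start. The peak from 41623534 to 41624366 covers the canonical start, from position -658 to position 174, and is the only one of the 38 that does so. It was enriched 3.799-fold (−log10 q 3.24). The other 3 peaks lie toward the end of the gene. The first covers exons 5, 6 and 7 with 3829 bp and a fold enrichment of 3.71, the second covers exon 9 with 3.46, and the third covers the last exon and the end of the gene with 3.02.

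The highest fold enrichment on *ETV4*, 3.85, belongs to its shortest peak, of 170 bp, from 41631879 to 41632048. It lies in the part of the record before the canonical start, and no annotated exon overlaps it. It is printed whole, on the minus strand, because it is the shortest of the 38 peaks, and its 170 bp hold none of the motifs searched here.

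ETV4 short peak: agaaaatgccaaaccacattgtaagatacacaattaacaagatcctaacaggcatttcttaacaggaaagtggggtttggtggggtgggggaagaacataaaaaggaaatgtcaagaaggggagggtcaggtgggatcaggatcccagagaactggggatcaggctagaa

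*ETV1*, the remaining PEA3 gene, is not one of the 10 and was singled out after its values had been seen. It had 12 peaks covering 18.4% of its window, more than in 97.2% of protein-coding genes, and its highest fold enrichment was 3.34. Whether the PEA3 genes differ from other ETS genes was not tested.

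**Figure D2:**
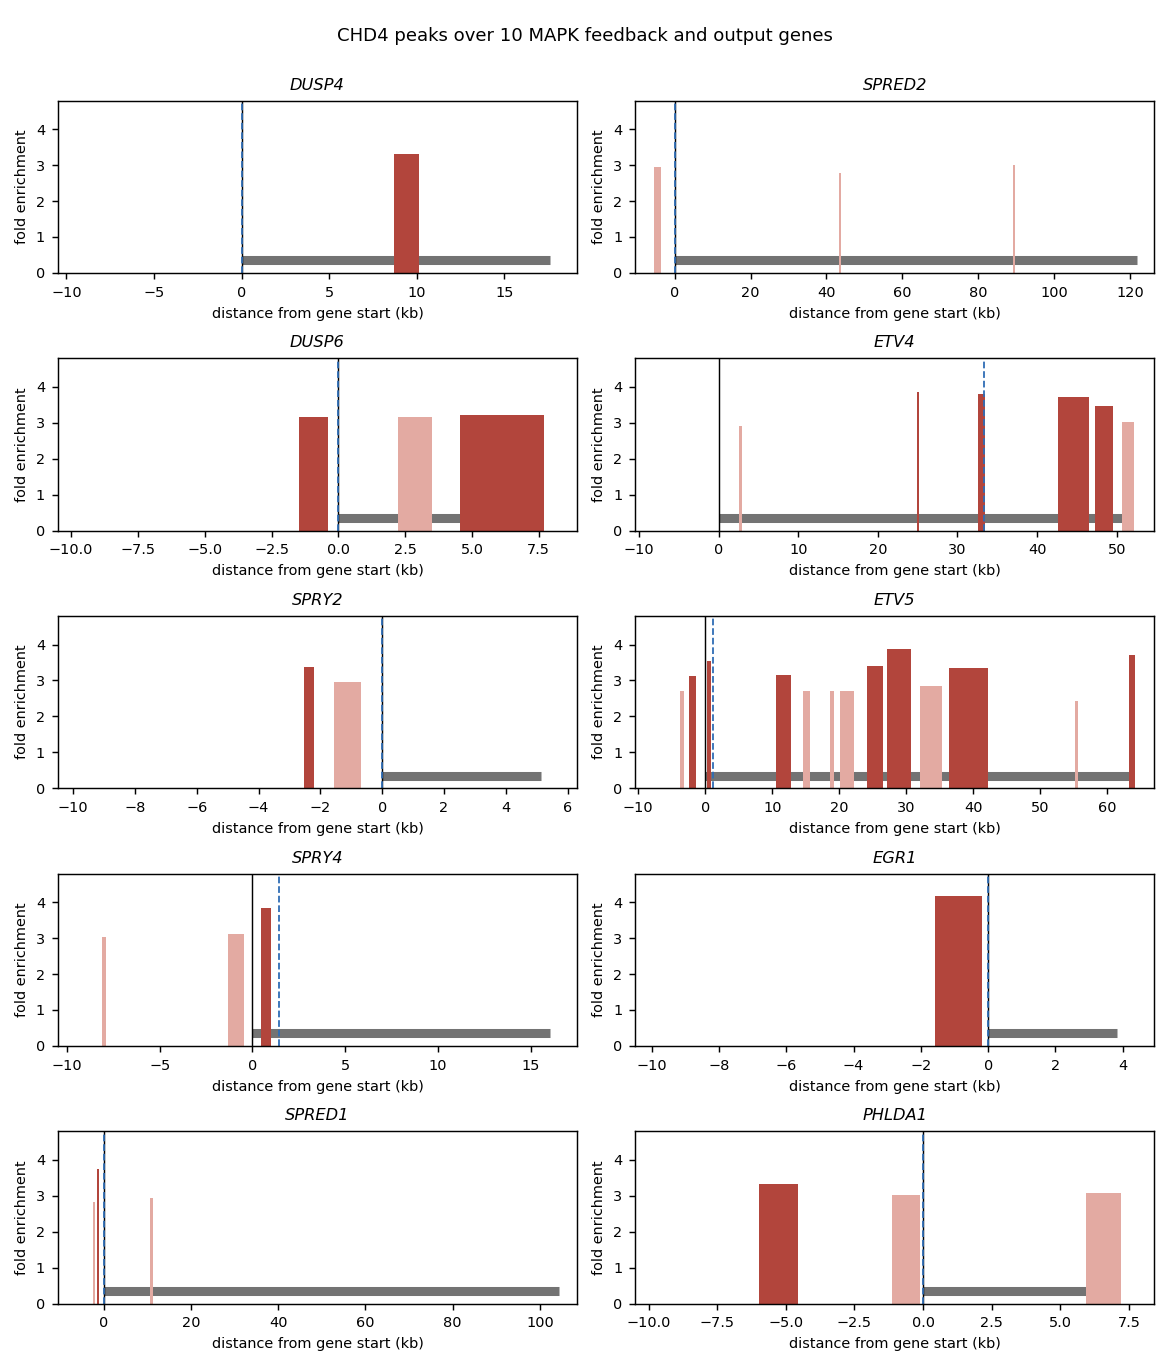
Position and fold enrichment (vertical axis) of the CHD4 peaks of each gene, by distance in kb from the start of the gene record (solid line), in the direction of transcription. The grey bar is the gene record, the dashed line the start of the canonical transcript, darker bars have a q of at most 0.01, and the narrowest bars are drawn wider than scale. Peaks fill the middle of *ETV5* and the last part of *ETV4*, and lie wholly before the start in *EGR1* and *SPRY2*.

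DUSP phosphatases remove the activating phosphates of ERK, DUSP4 in the nucleus and DUSP6 in the cytoplasm. *DUSP6*, on chromosome 12 from 89741012 to 89746278 on the minus strand, had 3 peaks in a window of 15267 bp, or 1.97 per 10 kb, which is more than in 97.7% of protein-coding genes. Of 4014 other genes of similar window length, 9.14% had at least as many peaks. The 3 peaks of *DUSP6* covered 19.9% of the window. Their fold enrichments were nearly equal, at 3.16, 3.17 and 3.22. The first lies before the gene at positions -1458 to -384 and covers the start of the lncRNA ENSG00000286608. The next covers the end of intron 2 and part of exon 3, including 305 bp of coding sequence. The last is 3137 bp long and spans the end of the gene, with 700 bp in the 3′ untranslated region and 2437 bp beyond it. *DUSP4*, on chromosome 8 from 29190581 to 29208201 on the minus strand, differed from this arrangement. It had 1 peak, of 1448 bp, from 29198063 to 29199510 in intron 1, enriched 3.30-fold (−log10 q 2.47), and none at its start. That peak holds 2 matches to the AP-1 motif. Of 4004 other genes of similar window length, 61.3% had at least 1 peak, so the count on *DUSP4* is like that of most such genes.

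Sprouty proteins restrain signalling from receptor tyrosine kinases to RAS and RAF. *SPRY2*, on chromosome 13 from 80910111 to 80915261 on the minus strand, had 2 peaks, both before the gene. The one nearer to the start, at positions -1565 to -697, was enriched 2.95-fold (−log10 q 1.48). The one farther away, at -2525 to -2216, was enriched 3.38-fold (−log10 q 2.44). *SPRY4*, on chromosome 5 from 141689992 to 141706020 on the minus strand, had 3 peaks with fold enrichments of 3.84, 3.10 and 3.03 from the nearest to the canonical start to the farthest. The gene record starts 1434 bp before the canonical transcript, and the strongest peak, from 141705030 to 141705582, lies between these starts at positions -996 to -444 from the canonical one. Of all peaks, 91.4% had a lower fold enrichment. It is shown because it holds an ETS core, which begins at position -751, and it is the only one of the 5 Sprouty peaks that does. The sequence is chr5:141705274-141705394 on the minus strand, with the ETS core in capitals, and no annotated exon overlaps it.

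SPRY4 start peak: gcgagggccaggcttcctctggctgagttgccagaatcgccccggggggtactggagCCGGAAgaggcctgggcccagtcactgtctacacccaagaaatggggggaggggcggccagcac

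SPRED proteins bring the RAS inhibitor neurofibromin to the membrane, and loss of SPRED1 occurs in some mucosal melanomas. The SPRED genes are the longest of the 10 and had the sparsest peaks. *SPRED1*, on chromosome 15 from 38545037 to 38649450 on the plus strand, had 3 peaks, which covered 1.19% of its window. The strongest, from 38543587 to 38544087, lies at positions -1450 to -950 and had a fold enrichment of 3.76. The others, at -2307 to -2072 and in intron 1, had 2.84 and 2.93. *SPRED2*, on chromosome 2 from 65537985 to 65659771 on the minus strand, also had 3 peaks, with fold enrichments of 2.94, 2.79 and 2.997. The first covers the start of the lncRNA LINC02934 more than 3000 bp before *SPRED2*, and the others lie in introns 1 and 2. None of the 3 had a q of at most 0.01. At least as many peaks were found in 48.4% of 2165 other genes with a window near that of *SPRED1* and in 50.9% of 1971 with one near that of *SPRED2*, so both genes lie near the middle for their length.

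*PHLDA1* encodes a protein with a pleckstrin homology-like domain that is induced by growth factors. It lies on chromosome 12 from 76419227 to 76425556 on the minus strand and had 3 peaks, or 1.84 per 10 kb, more than in 97.3% of protein-coding genes. Of 4092 other genes of similar window length, 10.4% had at least as many peaks. The peak at positions -1147 to -125 covers the start of the divergent lncRNA *PHLDA1-DT* and had a fold enrichment of 3.03. The peak farther before the gene, from 76430122 to 76431533, had 3.32 and was the only one with a q of at most 0.01. The third, with 3.08, spans the end of the gene with 389 bp in the 3′ untranslated region.

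Per length, the 10 genes had a median of 1.06 peaks per 10 kb of window against 0.232 over all protein-coding genes, and a median of 8.91% of the window covered against 1.22%. The lowest values were those of *SPRED2*, with 0.228 peaks per 10 kb, and *SPRED1*, with 0.262. Among other genes of similar window length, 16.8% had at least as many peaks as *SPRY4*, 21.3% as *SPRY2* and 41.2% as *EGR1*. Surroundings differed too. In the 500000 bp on either side of each window, *PHLDA1* had 1.01 peaks per 10 kb, *ETV5* 0.71 and *ETV4* 0.64, whereas *SPRY2* had 0.08, *SPRED1* 0.14 and *DUSP6* 0.24, and chromosomes 1 to 22 and X as a whole had 0.198. The window held more peaks per length than its surroundings in all of the genes but *DUSP4* and *SPRED2*. The difference was widest by ratio for *SPRY2*, with 1.32 in the window. These densities were not counted alike. A peak counted for a window by 1 bp of overlap, but for the surroundings only when its centre lay there. The share of bases covered was measured alike for both. It was larger in the window in all of the genes but *SPRED1*, with 1.19% against 1.28%, and *SPRED2*, with 2.05% against 4.48%. Neither comparison of a window with its surroundings was made over all protein-coding genes, and every window includes a gene start. These comparisons therefore do not set the 10 genes apart. The part of the surroundings, and of DNA copy number, which the list does not measure, was not tested. Just beyond the windows, the nearest peak lay 757 bp past the end of *ETV5*, with a fold enrichment of 3.14, and 1048 bp past that of *ETV4*, with 3.71. The peak next to the *SPRY4* window, 14351 bp farther upstream, had 5.47, more than any inside.

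**Figure D3:**
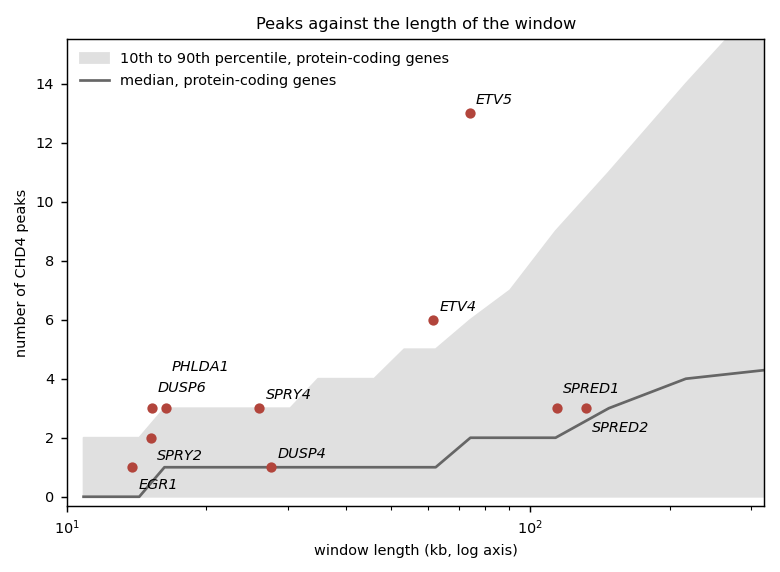
Number of CHD4 peaks in the window of each gene (vertical axis) against the length of the window in kb (log axis). Points are the 10 genes, and the line and grey band give the median and the 10th to 90th percentile of 20098 protein-coding genes in 20 classes of length. *ETV5* with 13 peaks and *ETV4* with 6 lie above the band, and *SPRED1*, *SPRED2* and *DUSP4* lie near the median.

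Most of the genes had a peak near the start, a place inside the window of the rule. The canonical start was taken as reference after the data had been seen. By it, 8 of the 10 genes had a peak within 1000 bp, against 35.2% of 19819 protein-coding genes, and the exceptions were *DUSP4* and *SPRED2*. With the first base of the gene record the count was 7, against 33.9%. Relative to that base, the *ETV5* peak lay after it, at positions 223 to 814, and *SPRY4* had 1 peak before it and 1 after it. Relative to the canonical start, the peak lay before the start and did not reach it in 7 of the 8 genes, and in *ETV4* it covered the start. No such peak lay after it. Among the 6972 protein-coding genes with a peak within 1000 bp of the canonical start, 47.6% had it before only, 35.2% over the start, 10.4% after only and 6.78% on both sides. Over all protein-coding genes, the share with a base under a peak was highest 400 bp before the canonical start, at 20.5%, and was 12.4% at the start itself.

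**Figure D4:**
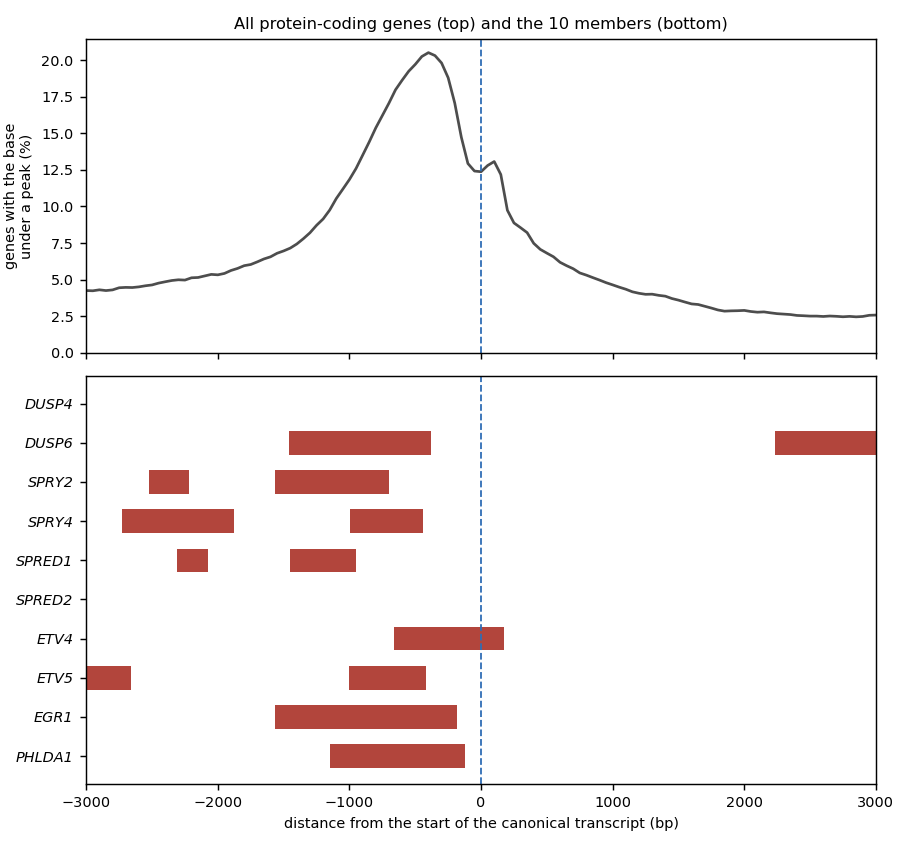
CHD4 peaks within 3000 bp of the canonical transcript start (dashed line), in the direction of transcription. The upper curve gives the percentage of 19819 protein-coding genes whose base at each distance lies under a peak, and the bars below are the peaks of each of the 10 genes. In 7 genes a peak stops before the start, in *ETV4* it covers it, and *DUSP4* and *SPRED2* have none in this range.

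The other end of the gene also lay under a peak in 4 of the 10 genes, *DUSP6*, *ETV4*, *ETV5* and *PHLDA1*, whereas 3.31% of protein-coding genes had the last base of their record under one. This measure was chosen after the positions had been seen, and it is a description. With peaks of q of at most 0.01 it held for 2 of the 10 genes, against 2.06%. The 4 peaks had fold enrichments from 3.02 to 3.70. Each reached into the region past the gene, from 130 bp for *ETV5* to 2437 bp for *DUSP6*. Of the 38 peaks, 29 contained no base of a canonical exon and 5 contained coding bases. By the class with most of their bases, 18 lay before the canonical start, 16 in introns, 2 in 3′ untranslated regions and 2 past the gene. The shares of these classes over all peaks were not computed, and every window includes 10000 bp before the gene. These counts therefore do not set the 10 genes apart.

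In sequence, the 38 peaks were described by the bases up to 150 bp on either side of their centres. Their median GC content was 45.1%, against 43.9% over all peaks, and ranged from 24.6% in an intron of *SPRED2* to 66.4% before *DUSP6*. The ETS core CCGGAA, searched on both strands, was found in 2 of the 38, on *EGR1* and *SPRY4*, against 3.98% of all peaks. The AP-1 motif was found in 2, on *DUSP4* and *PHLDA1*, against 6.74%. Of the E-boxes, which MITF and related factors bind, CACGTG was found in 1, against 5.05%, and CATGTG in 8, against 22.4%. No CArG box lay within 150 bp of the centre of any of them, against 1.79% of all peaks. The CArG boxes of the *EGR1* peak and of 3 *ETV5* peaks lie farther from the centre. These motifs do not share letters at any match printed here. With 38 peaks, counts of this size are too few to set the genes apart from the list.

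Other genes of the pathway were counted from lists taken from general knowledge, with earlier results of these data known. Of 17 paralogs of the 10 genes, 11 had a peak in their window and 8 one within 1000 bp of the canonical start. Among them *DUSP7*, which encodes a cytoplasmic ERK phosphatase, had the highest fold enrichment, at 4.81, followed by *DUSP16* with 4.05 and *DUSP10* with 3.55, both phosphatases that act mainly on JNK and p38. No peak lay on *SPRY1*, *DUSP2*, *DUSP9*, *EGR4*, *PHLDA2* or *PHLDA3*. Of 12 genes of the core cascade, 10 had a peak, and the scaffold gene *KSR2* was among those without. *BRAF*, with 9.94, *NRAS*, with 9.14, and *MAP2K2*, which encodes MEK2, with 4.16, had the highest values. On *BRAF* 15 of 16 peaks and on *NRAS* 4 of 5 overlapped exons of the canonical transcript, as 9 of the 38 peaks of the 10 genes did. The share over all peaks was not computed. Why the peaks of *BRAF* and *NRAS* fell on exons was not tested, so their high values are not read here as CHD4 occupancy. Both genes stay in every count and median given for the core cascade.

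Of 14 genes for adaptors and RAS regulators, 13 had a peak, with the highest fold enrichments on *SHC1* (4.88), *RASA1* (4.796) and *GAB1* (3.97), and *RASGRP1* had none. Of 15 other transcriptional outputs, 13 had a peak, with the highest on the ephrin receptor gene *EPHA4* (4.85), then on *KLF2* (3.75) and *IER3* (3.52), and *ELK1* and *KLF6* had none. Each count of genes with a peak in the window stands against 63.4% of protein-coding genes. A peak within 1000 bp of the canonical start was found in 8 of 12 genes of the core cascade. The count was 7 of 14 for adaptors and RAS regulators and 6 of 15 for other outputs, against 35.2% of protein-coding genes. The median number of peaks per 10 kb was 0.402 over the paralogs, 0.499 over the core cascade, 0.386 over the adaptors and RAS regulators and 0.719 over the other outputs, against 1.06 over the 10 genes. Lengths of genes differ between these lists, and no test of the lists was made.

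**Figure D5:**
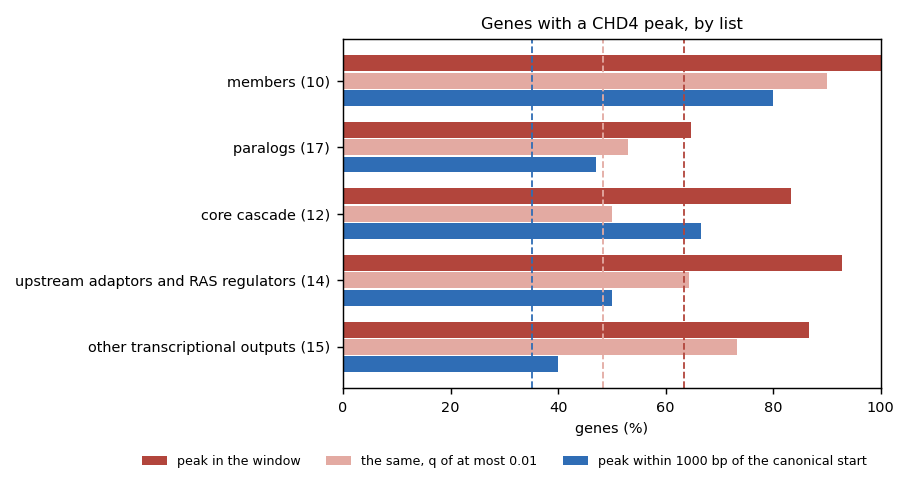
Percentage of genes of each list with a CHD4 peak in the window, with one of q of at most 0.01, and with one within 1000 bp of the canonical start (horizontal axis, number of genes in parentheses). Dashed lines of the same colours mark the shares over protein-coding genes, 63.4%, 48.4% and 35.2%. The 10 members have the highest share on each of the 3 measures. The lists were chosen with earlier results of these data known, so this order is a description.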

How the data were processed

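CHD4 ChIP-seq and input libraries of 501Mel cells were prepared once each. According to the paper, the authors aligned reads to hg19 with Bowtie, retaining uniquely placed reads, and ran MACS in broad mode. Per the labels' processing notes the versions were Bowtie 1.0.0 and MACS2 2.1.1.20160309, whereas the reporting summary names another Bowtie version. The sources do not name the control of that call. The reporting summary gives it a q cutoff of 0.01. In the deposited list, however, the lowest −log10 q is 1.004, and 48.5% of the peaks have a q of at most 0.01. The deposited list gives a score, the fold enrichment (a ratio over the background), and −log10 p and −log10 q values, of which fold enrichment and −log10 q were used. All 60126 peaks lay inside the chromosomes of GRCh37, taken as the same build, and sequences were read from that reference.

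Gene windows were records of GENCODE release 44 mapped to GRCh37 plus 10000 bp before the start, and the canonical transcript was the one tagged so in the annotation. Background shares were taken over 20098 protein-coding genes. Motifs were searched on both strands within 150 bp of peak centres on chromosomes 1 to 22 and X (60099 peaks). Named were the 10 genes with all peaks and, from each further list, the 3 genes with the highest fold enrichment and those without a peak, of which not every gene is reported here. The genes and lists were chosen with earlier results of these data known. Alternatives covered stricter thresholds, joined peaks, other windows and starts, and longer motif regions. Counting was tested on simulated peaks. Tools were Python 3.11.15, scipy 1.17.1, pandas 2.3.3, numpy 2.4.6, matplotlib 3.10.9, pysam 0.24.0 and samtools 1.23.1.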

Additional observations from a re-analysis of the deposited data

How the results depend on the processing

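No paired analysis was possible because ChIP and input were each sequenced once and the labels give no replicate numbers that could pair samples. Without replicates, and with the input's role in peak calling unstated, peaks of low rank cannot be told apart from background signal by reproducibility. Counting intervals over all protein-coding genes are narrow, so small shifts of a share count as changes. Stricter thresholds and smaller windows can only leave fewer peaks, and for the other shifts the cause was not tested. With q of at most 0.01, 9 of the 10 genes had a peak and the peaks fell from 38 to 19, while protein-coding genes fell from 63.4% to 48.4%. Past a −log10 q of 5, 0 genes and 0 peaks were left against 5.48%, and with a fold enrichment of at least 4, 1 gene and 1 peak against 11.7%. The gene record alone left 8 genes and 25 peaks, and 50.9% of protein-coding genes. With 2000 bp before the start the share was 58.5%, and over all gene records with 10000 bp it was 39.1%. Joined peaks, peak centres and the 50% overlap left all 10 genes with 31 to 36 peaks.

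Start peaks were found in 7 genes and 33.9% of protein-coding genes. The share was 29.1% within 500 bp, 38.7% within 2000 bp, 20.9% with q of at most 0.01, 42.6% with any transcript start and 35.2% with the canonical start, an alternative added after seeing the data, with 5 to 8 of the 10 genes. Peaks past a −log10 q of 5 left 1.51% and 0 of the 10 genes. The median of 1.06 peaks per 10 kb became 0.63 with q of at most 0.01 and 0.596 in the gene record alone, against 0 and 0.045 over all protein-coding genes, and as a share of the window covered it was 8.91%. The median fold enrichment of 3.14 became 3.46 with q of at most 0.01 and 3.57 for the strongest peak of each gene. Within 500 bp of the centre, CACGTG was found in 4 of the 38 peaks, CATGTG in 22 and the CArG box in 4, against 14.1%, 52.8% and 5.84% of all peaks. The count of gene ends under a peak fell from 4 to 2 with q of at most 0.01, and the share of protein-coding genes from 3.31% to 2.06%; this measure and its alternative were added after seeing the data.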
